A study of Mus musculus with 14 samples.

Results

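The 9 genes Cs, Idh2, Idh3a, Idh3b, Ogdh, Dlst, Suclg1, Fh1 and Mdh2, which encode enzymes of the tricarboxylic acid (TCA) cycle, were taken from the 14329 genes in the deposited values by their symbols, with no threshold on any measured value. All 9 passed the filter on low counts and are among the 12645 genes tested. Bulk RNA-seq libraries were made from microglia (CD45low CD11b+ CX3CR1+ cells, 2000 sorted cells per sample) of the dorsal lumbar spinal cord of 6-month-old mice at day 5 after serum transfer (ST). WT mice were C57BL/6 without human transgenes, and the study used male and female mice. TASTPM mice were heterozygous for mutant human transgenes, among them APP with the Swedish mutation, from a C57BL/6 backcross, all under the murine Thy-1 promoter, which drives expression in neurons. Each mouse received either arthritogenic serum from K/BxN mice (K/BxN ST) or pooled serum from KRN/C57 mice (Control ST) by intraperitoneal injection on days 0 and 2, and no group went without serum. There were 4 libraries each for WT K/BxN ST and TASTPM K/BxN ST and 3 each for WT Control ST and TASTPM Control ST.

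The TCA cycle runs in the mitochondrial matrix, where it oxidises the acetyl group of acetyl-CoA to carbon dioxide and passes the electrons to NAD and FAD for the respiratory chain. Its intermediates also leave the cycle, as citrate for lipid synthesis and as succinate and itaconate in activated macrophages. Microglia, the resident macrophages of the spinal cord, use both oxidative metabolism and glycolysis, and activated macrophages are known for shifts between them. Among the 9 enzymes, Cs opens the cycle, Idh2, Idh3a and Idh3b oxidise isocitrate, Ogdh and Dlst belong to the 2-oxoglutarate dehydrogenase complex, Suclg1 releases succinate, and Fh1 and Mdh2 return fumarate to oxaloacetate.

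The libraries held 14223015 to 20239175 reads on genes, and 12182 to 13945 genes had reads. All 12 microglia markers, among them Cx3cr1, Tmem119 and P2ry12, had reads in each library and together took 2.41% to 8.73% of the reads. Reads on 15 neutrophil and monocyte markers set 4 K/BxN ST libraries apart, namely libraries 1 and 2 of WT and libraries 1 and 2 of TASTPM. These markers took 2.98% to 4.96% of the reads there and 0.107% to 0.163% in the other 10 libraries, of which 85.8% to 99.9% fell on Lyz2 and Csf3r. The sort of the study also left out cells with Ly6C or CCR2 on their surface, which classical monocytes carry. In these 4 libraries microglia markers took 2.41% to 5.59% of the reads, against 6.68% to 8.73% in the other 10. In library 1 of both K/BxN ST groups the neutrophil and monocyte markers, at 4.96% in TASTPM and 4.77% in WT, took more reads than the microglia markers, at 2.41% and 3.74%. In the same 4 libraries border macrophage markers took 0.0697% to 0.21%, against at most 0.0116%. F13a1 is in both this list and the list of neutrophil and monocyte markers. Dendritic cell markers took 0.00465% to 0.0468% in these 4 libraries, against at most 0.0018% in the other 10. Of the 15 markers, 10 were above the other 10 libraries in each of the 4, and Ly6g, Retnlg, Csf3r, S100a8 and S100a9 were not. Values of the 9 enzymes are therefore given by library, and log2 fold changes between sera are given with and without these 4 libraries. In bulk samples, fewer cells of a type and less RNA per cell cannot be told apart.

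Across the 9 enzymes no difference between K/BxN ST and Control ST passed the threshold in WT or in TASTPM, where a call needs a limma adjusted p below 0.05 and a log2 fold change above 1 in size. Cs in TASTPM had the smallest p; its 4 K/BxN ST libraries all lay above its 3 Control ST libraries, with a fold change of 1.65 (95% confidence interval 1.25 to 2.17). In both genotypes the log2 fold change of each of the 9 enzymes was above 0, with a median of 0.23 in WT and 0.27 in TASTPM. The median over all genes tested was 0.057 in WT and 0.0056 in TASTPM, and 54.0% and 50.4% of all genes were above 0. The 9 enzymes were chosen with earlier results of these data known, so this comparison is a description and no test. Without 4 K/BxN ST libraries that are high in monocyte markers, the medians of the 9 were 0.0085 and 0.043, with 5 and 6 of 9 above 0.

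The threshold was passed by 0 of the 9 enzymes in WT, where 1 gene in all (0.00791% of those tested) passed, the retinoic acid receptor Rarg, named after its values were seen. In TASTPM 0 of the 9 passed, where 0% of the genes tested did. An unadjusted limma p below 0.05 was reached by 0 of the 9 in WT, against 7.13% of all genes, and by 1 of the 9, Cs, in TASTPM, against 4.22%. On the recovered whole reads, DESeq2 called 0 of the 9 in WT and in TASTPM, against 1% and 0.127% of all genes, and edgeR's quasi-likelihood test called 0 of the 9, against 0% of all genes in both. With either tool, an unadjusted p below 0.05 was reached by 0 of the 9 in WT, against 7.92% of all genes with DESeq2 and 6.18% with edgeR, and by 1 of the 9, Cs, in TASTPM, against 5.46% and 4.03%. Libraries of K/BxN ST and Control ST did not overlap for Dlst in WT and for Cs in TASTPM, both higher in K/BxN ST. That is 1 of 9 enzymes in each genotype, where 3.67% and 2.67% of all genes were higher without overlap.

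**Figure D1:**
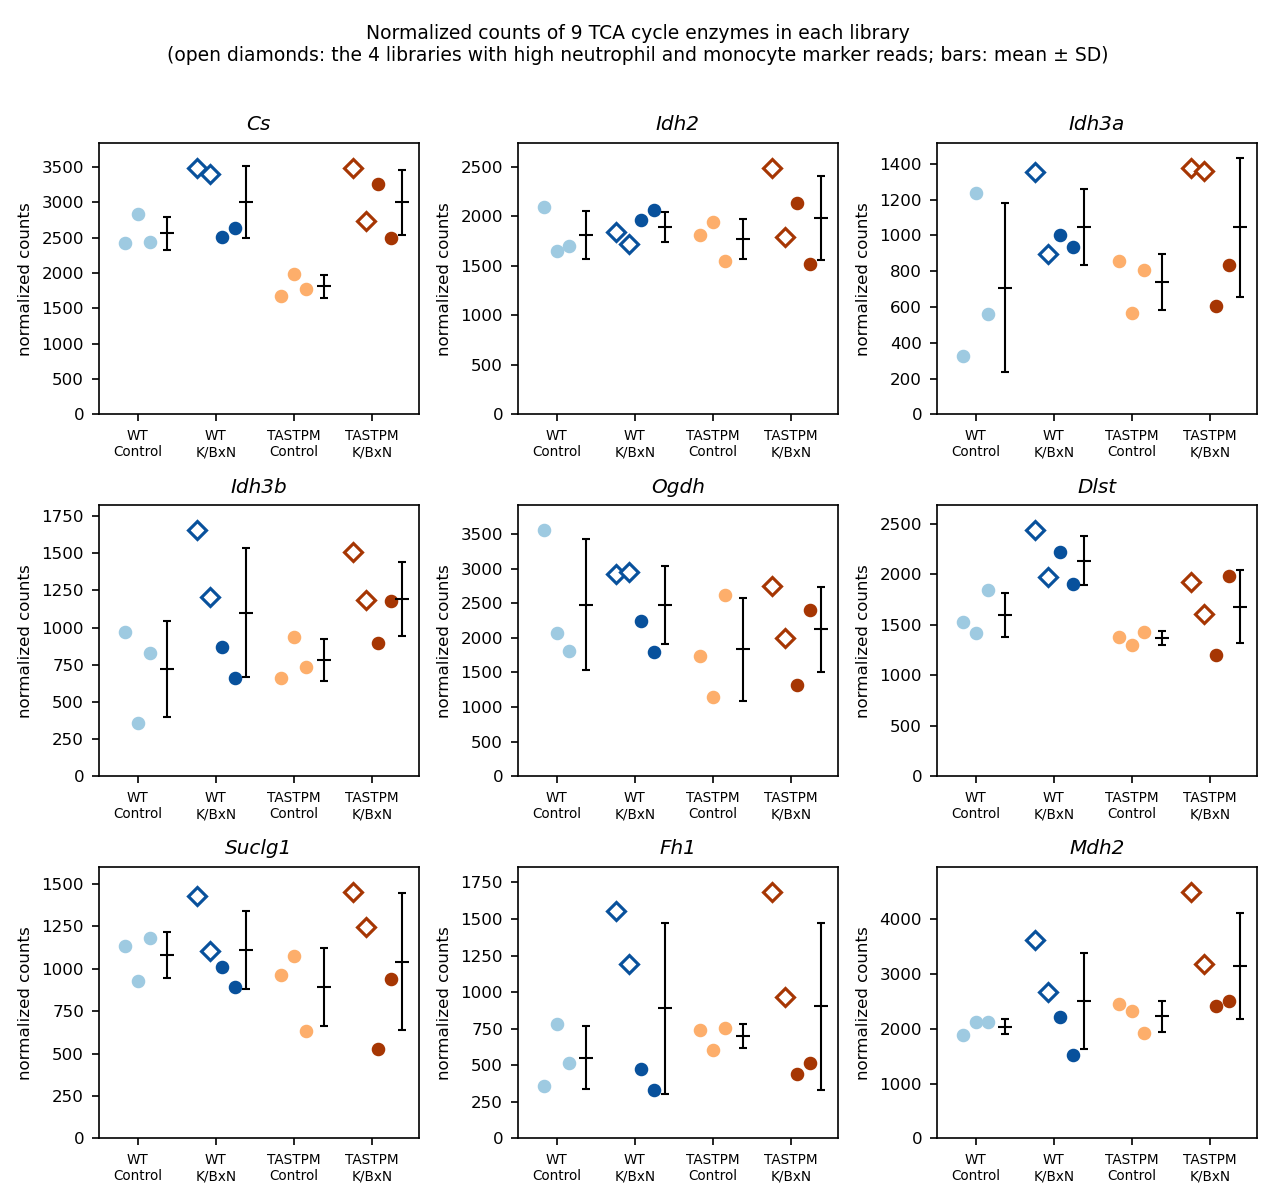
Normalized counts (vertical axis, from 0) of each enzyme in the 14 libraries by group, with the mean and SD of each group beside the points; open diamonds are the 4 K/BxN ST libraries with high neutrophil and monocyte marker reads. Cs stands between 1670.3 and 1979.6 in TASTPM Control ST, below each of the other 11 libraries, whereas the high values of Fh1 in K/BxN ST are the open diamonds.

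Cs and Dlst, the enzymes whose serum groups did not overlap in one genotype, are shown by their promoters, 250 bases before to 50 bases after the transcription start, as RefSeq gives them for the GRCm38.p6 build, matched letter for letter to GRCm39. Both lines run 5′ to 3′ along the gene, in lower case, with motif letters in capitals.
Cs (GRCm39, chr10:128173346-128173645, plus strand): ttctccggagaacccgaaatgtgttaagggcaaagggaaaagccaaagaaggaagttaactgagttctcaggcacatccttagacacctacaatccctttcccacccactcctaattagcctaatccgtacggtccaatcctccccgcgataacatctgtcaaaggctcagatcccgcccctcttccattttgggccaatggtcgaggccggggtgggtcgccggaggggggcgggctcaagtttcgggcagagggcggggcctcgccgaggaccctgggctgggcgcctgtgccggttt
Dlst (GRCm39, chr12:85157357-85157656, plus strand): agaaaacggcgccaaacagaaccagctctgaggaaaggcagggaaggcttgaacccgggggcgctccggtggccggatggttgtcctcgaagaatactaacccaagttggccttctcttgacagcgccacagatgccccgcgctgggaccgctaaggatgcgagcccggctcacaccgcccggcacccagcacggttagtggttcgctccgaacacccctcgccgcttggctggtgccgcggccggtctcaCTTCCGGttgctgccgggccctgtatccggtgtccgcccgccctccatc
The capitals in Dlst mark the letters CCGGAAG, read on the opposite strand, a core that ETS factors such as GABP bind. The same letters were searched on both strands together with the NRF1 core (GCGC, 2 free bases, GCGC) and AAGGTCA, bound by the oestrogen-related receptors, since these factors are known regulators of nuclear genes for mitochondria. Of 32851 promoters of the same length in the table, 8.86% held the ETS letters, 6.23% the NRF1 letters and 4.72% the oestrogen-related receptor letters. None of the 3 motifs was found in the Cs window. Among the other enzymes, Idh3b held the ETS letters and 1 of the start sites of Ogdh held the oestrogen-related receptor letters, while the windows of Idh2, Suclg1, Fh1 and Mdh2 held none of the 3. The table had an entry for 8 of the 9 enzymes, with Idh3a missing.

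Cs encodes citrate synthase, which joins acetyl-CoA and oxaloacetate to citrate. The gene lies on GRCm39 at chr10:128172837-128198363 on the plus strand, and 9.93% of the exonic bases of its canonical transcript are shared with Coq10a and a long non-coding RNA on the opposite strand. Normalized counts of Cs in TASTPM were 3488, 2740.3, 3264 and 2492 for K/BxN ST libraries 1 to 4 and 1670.3, 1979.6 and 1774 for Control ST libraries 1 to 3. The lowest K/BxN ST library thus lay above the highest Control ST library, and the values of the libraries with few monocyte markers, 3 and 4, were the second highest and the lowest of the K/BxN ST group. Group means were 2996 ± 459 (SD, n = 4) and 1808 ± 157 (SD, n = 3) normalized counts. For Cs in TASTPM the log2 fold change was 0.72 (95% confidence interval 0.32 to 1.11, limma adjusted p = 0.964), with an unadjusted p of 0.00153 over 12645 genes tested. DESeq2 gave an adjusted p of 0.123 and edgeR one of 0.996. Without the 4 libraries with high monocyte markers the log2 fold change of Cs was 0.66 (95% confidence interval 0.23 to 1.09), and with the marker level as a covariate it was 0.60 (0.25 to 0.95). Over the omission of single libraries it stayed between 0.64 and 0.80.

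Normalized counts of Cs in WT were 3481, 3401, 2506 and 2632 for K/BxN ST libraries 1 to 4 and 2419, 2831 and 2431 for Control ST. Libraries 1 and 2, those with high monocyte markers, lay above all Control ST libraries, and libraries 3 and 4 lay among them. Its log2 fold change in WT was 0.22 (95% confidence interval −0.18 to 0.61, limma adjusted p = 0.791), and 0.0085 (−0.42 to 0.44) without the 4 libraries. The part of the marker-high libraries in the WT difference was not tested.

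Isocitrate is oxidised by 2 kinds of mitochondrial enzyme. Idh2 is the NADP-dependent form, a homodimer that supplies NADPH, and Idh3a and Idh3b encode the catalytic and a regulatory subunit of the NAD-dependent form, which drives the cycle. Idh2 lies at chr7:79741431-79765535 on the minus strand, and its canonical exons are shared with no other annotated gene. Over all its annotated transcripts, the longest stretch shared with another gene is 2491 bases, with Zfp710. The WT libraries with K/BxN ST held 1837, 1716, 1960.2 and 2061 normalized counts and those with Control ST 2093, 1649 and 1705. For TASTPM the values were 2492, 1789, 2133 and 1515 with K/BxN ST and 1815, 1943 and 1554 with Control ST. The groups overlapped in both genotypes, and Idh2 was the steadiest enzyme, with a range of 1.64-fold and a coefficient of variation of 14.0% over the 14 libraries. Its log2 fold change was 0.065 (95% confidence interval −0.35 to 0.48, limma adjusted p = 0.943) in WT and 0.14 (95% confidence interval −0.27 to 0.56, limma adjusted p = 0.966) in TASTPM, and without the 4 marker-high libraries 0.15 and 0.028.

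Idh3a lies at chr9:54493575-54514730 on the plus strand. The last part of its canonical transcript overlaps Acsbg1 on the opposite strand, over 42.8% of the exonic bases, and the strand setting of the authors' counting is not given in the sources used here, so reads of both genes cannot be told apart there. Its normalized counts in WT were 1357, 895, 1002 and 938 with K/BxN ST against 326, 1238 and 559 with Control ST. One WT Control ST library, the second, was nearly as high as the highest K/BxN ST library, and the other two were below all K/BxN ST libraries. In TASTPM they were 1379, 1363, 605 and 834 with K/BxN ST against 857, 564 and 806 with Control ST, so that libraries 1 and 2 stood above the controls and libraries 3 and 4 among them. For Idh3a the log2 fold change was 0.76 (95% confidence interval −0.094 to 1.62, limma adjusted p = 0.712) in WT, between 0.31 without Control ST library 1 and 1.27 without Control ST library 2, and 0.43 (95% confidence interval −0.42 to 1.29, limma adjusted p = 0.964) in TASTPM. Without the 4 marker-high libraries it was 0.67 in WT and −0.040 in TASTPM.

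Idh3b lies at chr2:130121227-130126467 on the minus strand, with 21.8% of its canonical exonic bases shared with Nop56 and a long non-coding RNA on the opposite strand. WT mice with K/BxN ST gave 1658, 1205, 872 and 663 normalized counts of Idh3b, and with Control ST 971, 358 and 831. TASTPM mice gave 1507, 1184, 895 and 1178 with K/BxN ST, and 664, 937 and 738 with Control ST. In TASTPM 3 of the 4 K/BxN ST libraries lay above every control, and in WT 2 of the 4 did. For Idh3b the log2 fold change was 0.65 (95% confidence interval −0.12 to 1.42, limma adjusted p = 0.734) in WT and 0.60 (95% confidence interval −0.17 to 1.37, limma adjusted p = 0.964) in TASTPM, and without the 4 marker-high libraries it was 0.20 and 0.41. The 2 subunits did not run in step in WT Control ST, where the log2 ratio of Idh3a to Idh3b was between −1.57 and 1.79 in the 3 libraries. Over the K/BxN ST libraries of both genotypes this ratio stayed between −0.57 and 0.50.

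**Figure D2:**
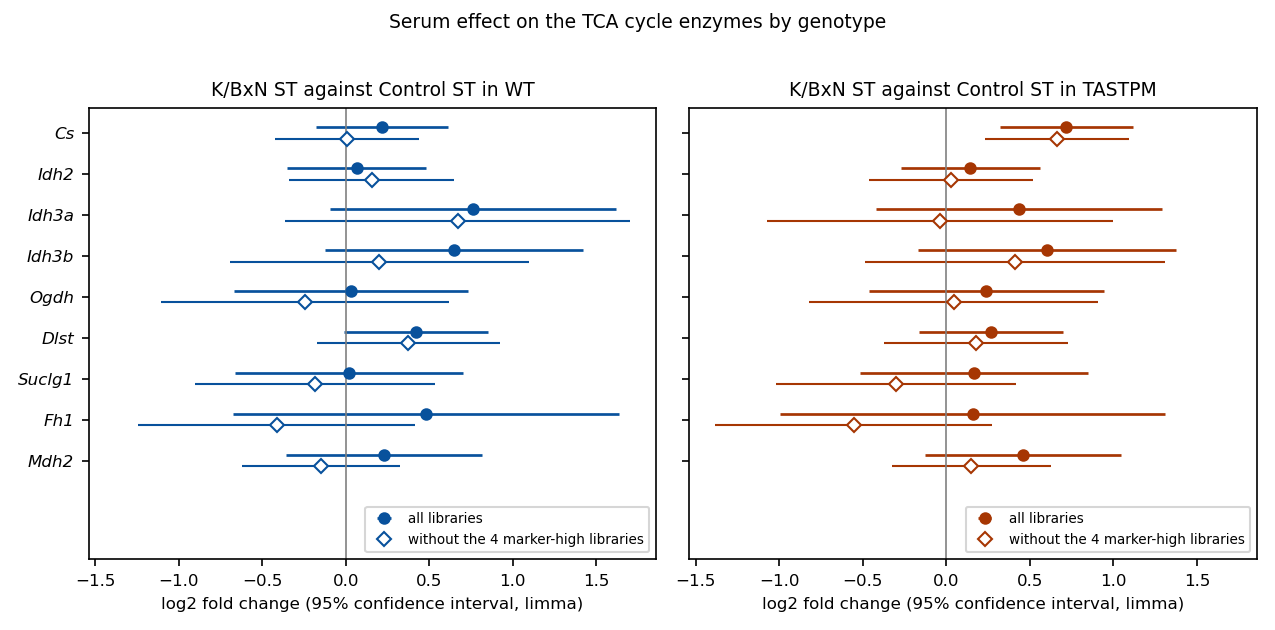
Log2 fold change of K/BxN ST against Control ST for each enzyme in WT (left) and TASTPM (right), with 95% confidence intervals from limma; filled circles use all libraries and open diamonds leave out the 4 K/BxN ST libraries with high neutrophil and monocyte markers. The interval of Cs in TASTPM is the one that lies above 0 in both settings, and Fh1 and Suclg1 stand below 0 in both genotypes without the 4 libraries.

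Ogdh and Dlst encode the dehydrogenase (E1) and the succinyltransferase (E2) of the 2-oxoglutarate dehydrogenase complex, which forms succinyl-CoA. Ogdh lies at chr11:6241551-6309233 and Dlst at chr12:85157027-85182486, both on the plus strand. For Ogdh the WT libraries had 2917, 2947, 2242 and 1794 normalized counts with K/BxN ST, against 3562, 2064 and 1815 with Control ST. The TASTPM libraries had 2754, 1998, 1323 and 2406 with K/BxN ST, against 1739, 1141 and 2618 with Control ST. The highest of its 14 values was a WT Control ST library and the lowest a TASTPM Control ST library, and the serum groups overlapped in both genotypes. The log2 fold change of Ogdh was 0.032 (95% confidence interval −0.67 to 0.74, limma adjusted p = 0.985) in WT and 0.24 (95% confidence interval −0.46 to 0.94, limma adjusted p = 0.966) in TASTPM, and −0.24 and 0.043 without the 4 marker-high libraries. The mean of the WT K/BxN ST group, 2475 ± 559 (SD, n = 4), was slightly below that of the WT Control ST group, 2480.0 ± 945 (SD, n = 3), so the sign in WT differs between the log2 and the linear scale.

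Dlst reached 2443, 1977, 2225 and 1905 normalized counts in WT with K/BxN ST, and 1525, 1420.0 and 1845 with Control ST. Every WT K/BxN ST library lay above every WT Control ST library, by the margin of library 4 over Control ST library 3. Group means were 2138 ± 246 (SD, n = 4) and 1597 ± 221 (SD, n = 3). In WT the log2 fold change of Dlst was 0.42 (95% confidence interval −0.0082 to 0.85, limma adjusted p = 0.698), with an unadjusted limma p of 0.054, and it was 0.38 (−0.17 to 0.92) without the 4 marker-high libraries, so the 2 WT libraries with few monocyte markers gave a difference of nearly the same size. TASTPM libraries reached 1921, 1612, 1205 and 1989 with K/BxN ST, and 1383, 1297 and 1431 with Control ST. Here library 3 was below every control and the other 3 were above every control, with a log2 fold change of 0.27 (95% confidence interval −0.16 to 0.70, limma adjusted p = 0.964), and 0.18 without the 4 marker-high libraries.

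Suclg1 encodes the alpha subunit of succinyl-CoA ligase, the step that makes a nucleoside triphosphate directly, and lies at chr6:73225365-73253894 on the plus strand. Normalized counts of Suclg1 in WT were 1431, 1105, 1011 and 891 after K/BxN ST, against 1136, 928 and 1183 after Control ST. In TASTPM they were 1455, 1246, 529 and 939.8 after K/BxN ST, against 961, 1077 and 632 after Control ST. In each genotype the K/BxN ST group held both the highest and the lowest library. Suclg1 had a log2 fold change of 0.021 (95% confidence interval −0.66 to 0.70, limma adjusted p = 0.991) in WT and 0.17 (95% confidence interval −0.51 to 0.85, limma adjusted p = 0.969) in TASTPM, and without the 4 marker-high libraries −0.18 and −0.30, the opposite sign in both.

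Fh1 encodes fumarate hydratase, which turns fumarate to malate, and lies at chr1:175425290-175453205 on the minus strand. The WT values were 1556, 1195, 474 and 327 normalized counts after K/BxN ST, against 357, 782 and 518 after Control ST. The TASTPM values were 1687, 967, 442 and 512 after K/BxN ST, against 743, 607 and 757 after Control ST. Libraries 1 and 2 of each K/BxN ST group were above all other libraries of the data set, while libraries 3 and 4 of TASTPM were below every TASTPM control and libraries 3 and 4 of WT lay among and below the WT controls. Fh1 was the most variable of the enzymes, with a range of 5.16-fold and a coefficient of variation of 55.0% over the 14 libraries. The lowest value, 327 in WT K/BxN ST library 4, rested on 300 reads, with a 95% Wilson interval of 292 to 366 normalized counts. This error of counting reads is small beside the spread between libraries. Error from the sampling of cells or the amplification of cDNA is not covered by the interval and was not tested. Fh1 had a log2 fold change of 0.48 (95% confidence interval −0.67 to 1.63, limma adjusted p = 0.833) in WT and 0.16 (95% confidence interval −0.996 to 1.31, limma adjusted p = 0.988) in TASTPM, and −0.41 and −0.55 without the 4 marker-high libraries.

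Mdh2 encodes mitochondrial malate dehydrogenase, which closes the cycle and takes part in the malate-aspartate shuttle, and lies at chr5:135807292-135820882 on the plus strand. WT libraries held 3627, 2668, 2213 and 1527 normalized counts of Mdh2 after K/BxN ST, against 1883, 2116 and 2120.3 after Control ST. TASTPM libraries held 4506, 3182, 2413 and 2507 after K/BxN ST, against 2454, 2317 and 1916 after Control ST. In WT the 3 controls were close together while the K/BxN ST libraries ran from below them to well above, and in TASTPM 3 of 4 K/BxN ST libraries lay above every control. Mdh2 had a log2 fold change of 0.23 (95% confidence interval −0.35 to 0.82, limma adjusted p = 0.843) in WT and 0.46 (95% confidence interval −0.13 to 1.05, limma adjusted p = 0.964) in TASTPM, and without the 4 marker-high libraries it was −0.15 and 0.15.

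Read library by library, most of the 9 enzymes were high in the 4 libraries with high monocyte markers. Set against the mean of the controls of their genotype, the 9 had a median log2 ratio of 0.92 and 0.52 in TASTPM K/BxN ST libraries 1 and 2, and 0.62 and 0.39 in WT K/BxN ST libraries 1 and 2. In libraries 3 and 4 it was −0.18 and 0.19 in TASTPM and 0.12 and 0.0040 in WT. The median over all genes tested was between 0.011 and 0.11 in the 8 K/BxN ST libraries. TASTPM K/BxN ST library 1, which had the largest share of marker reads (4.96%), had all 9 enzymes above every TASTPM Control ST library, where 30.3% of all genes were. The number above every control was 7 in TASTPM library 2, where 25.5% of all genes were, and 7 and 5 in WT libraries 1 and 2, against 29.8% and 25.7% of all genes. It was 2 and 4 in TASTPM libraries 3 and 4, against 26.7% and 20% of all genes, and 2 and 1 in WT libraries 3 and 4, against 22.5% and 23%. In TASTPM library 3 only Cs and 1 other enzyme, Idh2, stood above every control. Idh3b, Fh1 and Mdh2 were each higher in all 4 marker-high libraries than in any of the other 10. That is 3 of 9 enzymes, where 7.63% of all genes tested were.

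Without the 4 libraries the median log2 fold change of the 9 enzymes was 0.0085 in WT, with 5 of 9 above 0, and 0.043 in TASTPM, with 6 of 9 above 0. The medians over all genes were then 0.040 and −0.0055. With the summed marker level as a covariate the medians of the 9 were 0.037 and 0.16, with 5 and 7 of 9 above 0. Cs in TASTPM and Dlst in WT, the 2 comparisons whose groups did not overlap, kept differences of 0.66 and 0.38 without the 4 libraries. With 2 K/BxN ST libraries left against 3 controls, 1 of 9 enzymes was higher without overlap in each genotype, Dlst in WT and Cs in TASTPM, near the 9.71% and 9.46% of all genes that were. In TASTPM, Fh1 was then lower without overlap, as were 9.32% of all genes.

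**Figure D3:**
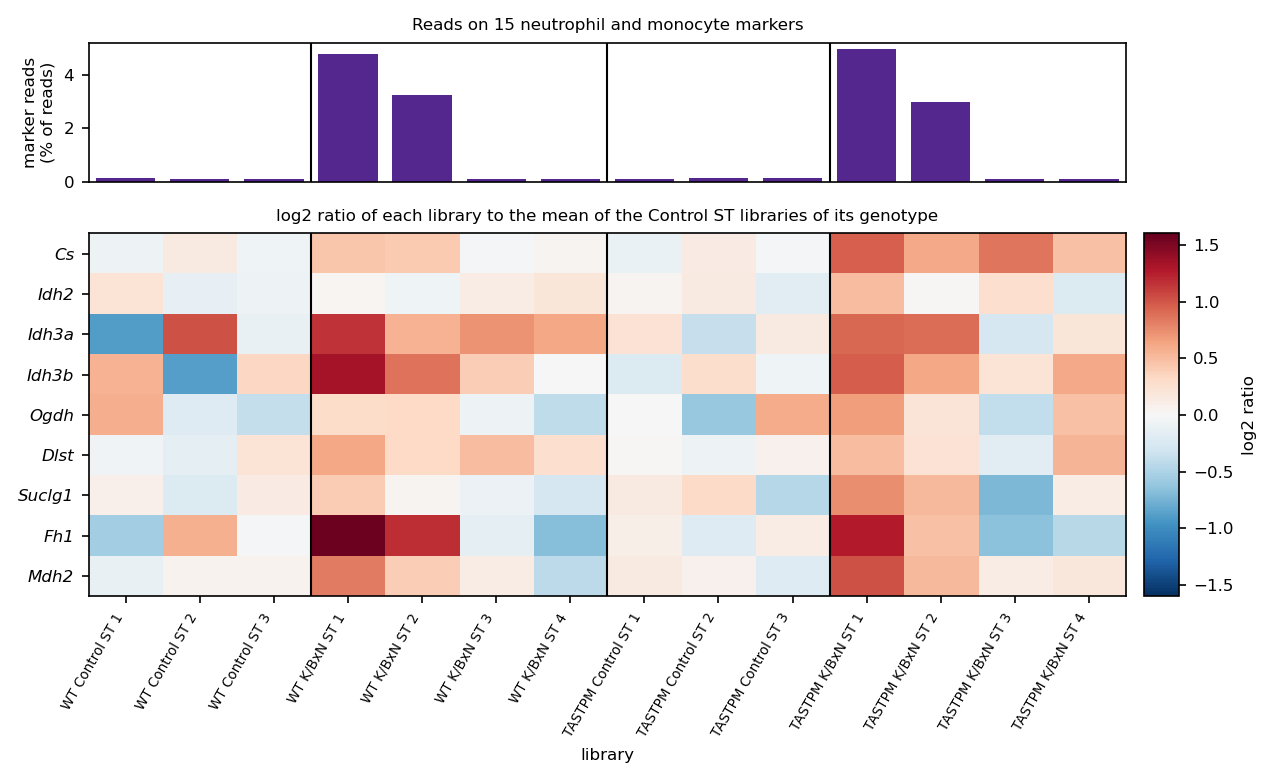
Top, reads on 15 neutrophil and monocyte markers as a percentage of the reads of each library (bars, from 0); bottom, the log2 ratio of each enzyme (rows) in each library (columns) to the mean of the Control ST libraries of its genotype, red above and blue below. The red columns are libraries 1 and 2 of both K/BxN ST groups, which carry 2.98% to 4.96% marker reads, while the Cs row is red in all 4 TASTPM K/BxN ST libraries.

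The comparison of genotypes asked whether the enzymes differed between TASTPM and WT mice given the same serum. Under Control ST, Cs was lower in TASTPM, with 1670.3, 1979.6 and 1774 normalized counts against 2419, 2831 and 2431 in WT and no overlap. This log2 fold change was −0.50 (95% confidence interval −0.92 to −0.079, limma adjusted p = 0.818), with an unadjusted limma p of 0.0233. Without the 4 marker-high libraries, none of which is a control, the estimate was the same, and its 95% confidence interval was −0.89 to −0.12. Under Control ST, 0 of the 9 enzymes passed the threshold, as did 0% of all genes tested. Cs was the 1 enzyme of 9 with an unadjusted limma p below 0.05, against 5.57% of all genes, and the 1 of 9 that was lower without overlap, against 4.71%. DESeq2 called 0 of the 9, against 0.324% of all genes, and edgeR called 0 of the 9, against 0%. With both tools 1 of the 9, Cs, had an unadjusted p below 0.05, against 5.72% of all genes with DESeq2 and 4.6% with edgeR. The other 8 log2 fold changes of TASTPM against WT under Control ST lay between −0.45 for Ogdh and 0.41 for Fh1, 4 above 0 and 4 below, and the median of the 9 was −0.034. With single libraries left out, this median ranged from −0.22 to 0.057, so its sign was not stable.

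Under K/BxN ST the Cs means of TASTPM and WT were alike, 2996 ± 459 (SD, n = 4) and 3005 ± 507 (SD, n = 4) normalized counts, with a log2 fold change of −0.0017 (95% confidence interval −0.37 to 0.36, limma adjusted p = 1). The threshold was passed by 0 of the 9 enzymes, as by 0% of all genes tested with limma, and an unadjusted p below 0.05 was reached by 0 of the 9 with limma, edgeR or DESeq2, against 1.91%, 1.46% and 1.92% of all genes. None of the 9 was higher or lower in TASTPM K/BxN ST without overlap, where 1.16% and 0.672% of all genes were. The smallest p was that of Dlst, with 1921, 1612, 1205 and 1989 normalized counts for TASTPM against 2443, 1977, 2225 and 1905 for WT after K/BxN ST, groups that overlap. Dlst had a log2 fold change of −0.37 (95% confidence interval −0.76 to 0.033, limma adjusted p = 1). Mdh2 had the highest log2 fold change of the 9 in this comparison, 0.35 (−0.19 to 0.89), and 0.36 (0.015 to 0.71) with the marker covariate, with an unadjusted limma p of 0.0421 and an adjusted p of 1. Without the 4 marker-high libraries it was 0.42 (−0.10 to 0.94).

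An interaction term asked whether the effect of serum was of a different size in TASTPM and WT. The threshold was passed by 0 of the 9 enzymes, as by 0% of all genes, and 0 of the 9 reached an unadjusted p below 0.05 with limma, edgeR or DESeq2, against 3.04%, 2.6% and 3.18% of all genes. Cs came nearest, with a log2 difference of 0.50 (95% confidence interval −0.060 to 1.06, limma adjusted p = 0.999) and an unadjusted limma p of 0.0761. Without the 4 marker-high libraries this difference was 0.65 (0.043 to 1.26), with an unadjusted limma p of 0.038 and an adjusted p of 0.998. The interaction uses the same Control ST libraries as the comparison of genotypes and the comparison of sera in TASTPM. The low Cs values of TASTPM Control ST thus enter each of these comparisons, which are not separate observations. The effects on the other 8 enzymes differed between genotypes by −0.33 for Idh3a to 0.23 for Mdh2, each with a 95% confidence interval that spans 0.

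Ratios within a library do not depend on how the library was scaled. The log2 ratio of Cs to Idh2, a pair chosen after the values were seen because Idh2 varied least, was −0.12 to 0.19 in TASTPM Control ST and 0.49 to 0.72 in TASTPM K/BxN ST. In WT it was 0.21 to 0.78 in Control ST and 0.35 to 0.99 in K/BxN ST. The TASTPM Control ST libraries had the 3 lowest ratios of the 14, and the same low Cs values enter these ratios. As a share of the summed normalized counts of the 9 enzymes, Cs took between 13.6% and 25.5% by library, and Fh1 between 2.5% and 7.96%.

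Levels of different enzymes were compared per kilobase of the canonical transcript of GENCODE M39. On this scale Mdh2 was highest, with 1686 ± 518 normalized counts per kb (SD, n = 14 libraries), followed by Idh2 with 1073 ± 149.8 and Cs with 898 ± 204. Suclg1 (683 ± 171), Idh3b (604 ± 214) and Dlst (516 ± 111) came next, then Idh3a (351 ± 129), Ogdh (329 ± 99.1) and Fh1 (148 ± 81.2). Mdh2 was above Idh2 in 13 of 14 libraries, Dlst above Idh3a in 12 and Ogdh above Fh1 in all 14. Neighbours in between changed places: Idh2 was above Cs in 11 libraries, Cs above Suclg1 in 12, Suclg1 above Idh3b in 9, Idh3b above Dlst in 9 and Idh3a above Ogdh in 9, and in each of these 5 pairs the mean log2 ratio was smaller than its SD over the libraries. The first 3 and the last place were the same in all 4 groups. The order depends on the length used, since per kilobase of coding sequence Cs stood above Idh2 and Dlst above Suclg1 and Idh3b, while Mdh2 and Fh1 kept the ends of the order.

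**Figure D4:**
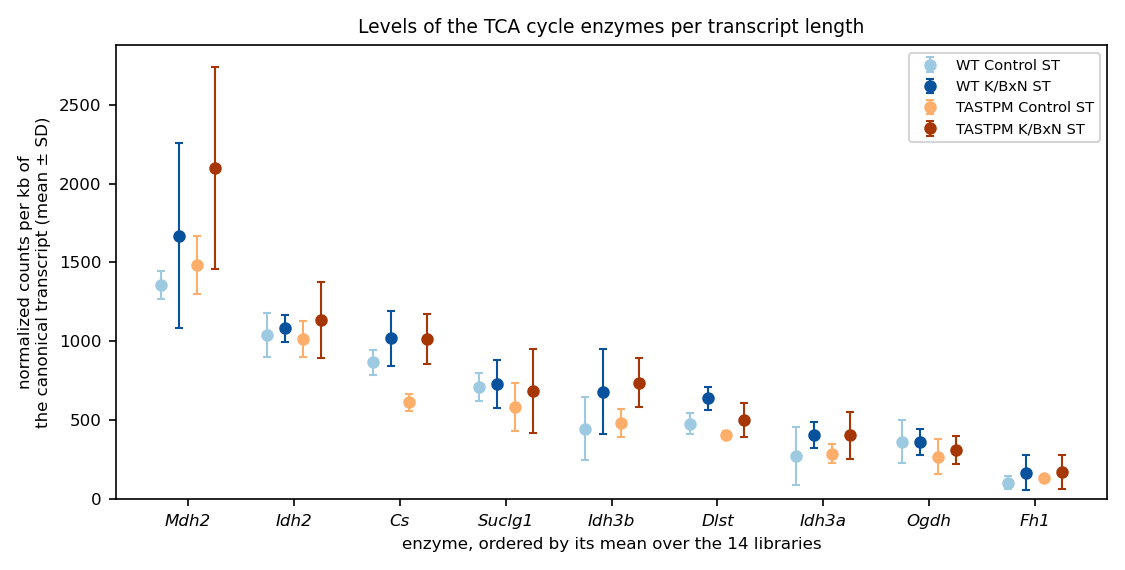
Normalized counts per kb of the canonical transcript (vertical axis, from 0) for each enzyme in the 4 groups, as means with SD (n = 3 or 4 libraries). Mdh2 stands highest and Fh1 lowest in each group, and the mean of Cs in TASTPM Control ST is 612 per kb, against 867 to 1018 in the other 3 groups.

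The other genes of the pathway were taken from fixed lists, and none of them passed the threshold in any of the 5 comparisons. The list of the remaining subunits of the cycle holds 9 genes, among them Idh3g, Dld, Suclg2, Sucla2 and Sdha to Sdhd, all tested, with a median log2 fold change of 0.17 in WT and 0.14 in TASTPM. In WT 8 of 9 and in TASTPM 9 of 9 were above 0, and without the 4 marker-high libraries 6 and 3 of 9, with medians of 0.035 and −0.039. Idh3g, the other regulatory subunit of the NAD-dependent isocitrate dehydrogenase, had 2390.1 to 4119.8 normalized counts in K/BxN ST and 1647 to 2550.3 in Control ST in WT, with a log2 fold change of 0.60 (limma unadjusted p = 0.0349, adjusted p = 0.684) and 0.29 without the 4 libraries.

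Pyruvate enters through its carrier, the pyruvate dehydrogenase complex and pyruvate carboxylase. The 7 genes of this list had a median log2 fold change of 0.26 in WT and 0.066 in TASTPM. An unadjusted limma p below 0.05 was reached by 0 of the 7 in either, against 7.13% and 4.22% of all genes tested. Both medians changed sign without the 4 marker-high libraries, to −0.082 and −0.21. Pdha1, the catalytic alpha subunit of pyruvate dehydrogenase, had 873 to 1307 normalized counts in K/BxN ST and 471 to 829.5 in Control ST in TASTPM, with no overlap and a log2 fold change of 0.69 (limma unadjusted p = 0.0568, adjusted p = 0.964), and 0.52 without the 4 libraries. Pdhx, which anchors a subunit of the same complex, had the smallest p of the list in WT, with a log2 fold change of 0.28 (limma unadjusted p = 0.344, adjusted p = 0.82), and 0.49 without the 4 libraries. The kinases and phosphatases that set the activity of this complex, 6 genes tested, had a median of −0.33 in WT and −0.22 in TASTPM, and without the 4 libraries of −0.54 in WT and, with the opposite sign, 0.22 in TASTPM, where 4 of 6 were then above 0. Pdp2, a phosphatase, had 116 to 208 normalized counts in K/BxN ST and 153 to 473 in Control ST in WT and a log2 fold change of −0.87 (limma unadjusted p = 0.167, adjusted p = 0.774), and −0.91 without the 4 libraries. Pdk3, a kinase, had 241 to 1035 normalized counts in K/BxN ST and 198 to 469 in Control ST in TASTPM and a log2 fold change of 0.85 (limma unadjusted p = 0.161, adjusted p = 0.964), and 0.25 without the 4 libraries. Both overlapped between the serum groups.

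Glutamate and malate feed the cycle from the side. The 4 genes tested had a median log2 fold change of 0.40 in WT and 0.54 in TASTPM. Without the 4 marker-high libraries these medians were −0.093 in WT, with 1 of 4 above 0, and 0.20 in TASTPM. Glud1, glutamate dehydrogenase, which makes 2-oxoglutarate, had 3247 to 5736 normalized counts in K/BxN ST and 1772 to 2985 in Control ST in TASTPM, with no overlap and a log2 fold change of 0.74 (limma unadjusted p = 0.0264, adjusted p = 0.964), and 0.51 without the 4 marker-high libraries. Me2, the mitochondrial malic enzyme, had 590.1 to 2292 normalized counts in K/BxN ST and 342 to 909 in Control ST in WT, with a log2 fold change of 1.11 (limma unadjusted p = 0.0506, adjusted p = 0.698) and 0.37 without the 4 libraries. The 5 carriers of metabolites over the inner membrane had a median of 0.32 in WT and 0.20 in TASTPM, and without the 4 libraries of 0.36 in WT and −0.25 in TASTPM, where 2 of 5 were then above 0. The aspartate-glutamate carriers led that list by p: Slc25a13 in WT with a log2 fold change of 1.49 (limma unadjusted p = 0.0622, adjusted p = 0.703), and Slc25a12 in TASTPM with 0.79 (limma unadjusted p = 0.0504, adjusted p = 0.964). Without the 4 libraries these were 0.58 and 0.22. The 5 cytosolic counterparts tested had a median of 0.22 in WT and 0.20 in TASTPM, and of 0.24 and 0.010 without the 4 libraries. Mdh1, the cytosolic malate dehydrogenase, had 3239 to 3684 normalized counts in K/BxN ST and 2068 to 2994 in Control ST in WT, with no overlap and a log2 fold change of 0.40 (limma unadjusted p = 0.0768, adjusted p = 0.712), and 0.40 without the 4 libraries. Aco1, the cytosolic aconitase that also binds iron-responsive RNA, had a log2 fold change of 0.54 (limma unadjusted p = 0.092, adjusted p = 0.964) in TASTPM, and 0.73 without the 4 libraries.

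Lipoic acid is the cofactor of Dlst and of the pyruvate dehydrogenase complex. The 7 genes for its attachment and for assembly of succinate dehydrogenase had a median log2 fold change of −0.038 in WT and −0.52 in TASTPM, and of 0.22 and −0.65 without the 4 marker-high libraries. Lias, lipoic acid synthase, had 311 to 489 normalized counts in K/BxN ST and 471 to 1150.0 in Control ST in WT and a log2 fold change of −0.80 (limma unadjusted p = 0.037, adjusted p = 0.684), and −0.94 without the 4 libraries. Sdhaf4, an assembly factor of succinate dehydrogenase, had a log2 fold change of −0.52 (limma unadjusted p = 0.113, adjusted p = 0.964) in TASTPM, and −0.65 without the 4 libraries. For mitochondria at large, 11 housekeeping genes had a median of 0.035 in WT and 0.20 in TASTPM, with 6 of 11 above 0 in WT and 10 of 11 in TASTPM. Without the 4 libraries both medians changed sign, to −0.071 and −0.10, with 4 of 11 above 0 in each genotype. Tomm20, an import receptor of the outer membrane, had 839 to 1266 normalized counts in K/BxN ST and 1478 to 2263 in Control ST in WT, lower in K/BxN ST with no overlap and a log2 fold change of −0.66 (limma unadjusted p = 0.0162, adjusted p = 0.65), and −0.59 without the 4 libraries. Timm23, a channel of the inner membrane, had a log2 fold change of 0.65 (limma unadjusted p = 0.0264, adjusted p = 0.964) in TASTPM, and 0.36 without the 4 libraries. The 4 regulators of mitochondrial biogenesis tested, Ppargc1b, Nrf1, Gabpa and Esrra, had a median of 0.18 in WT and −0.21 in TASTPM, and of 0.30 and −0.24 without the 4 libraries. Ppargc1b, a transcriptional coactivator, had 47.9 to 153 normalized counts in K/BxN ST and 15.9 to 53.5 in Control ST in WT, with a log2 fold change of 1.6 (limma unadjusted p = 0.0237, adjusted p = 0.668), and 2.36 without the 4 libraries. Esrra, an oestrogen-related receptor, had a log2 fold change of −0.57 (limma unadjusted p = 0.154, adjusted p = 0.964) in TASTPM, and −0.65 without the 4 libraries. Acod1, which makes itaconate, was looked for and had no entry under that symbol in the deposited values.

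The genes whose pattern was most like that of the 9 enzymes were found by Pearson's r of their log2 values with the mean of the 9 centred log2 values over the 14 libraries, as a description. They were Eno1, a glycolytic enolase (r = 0.96), G6pdx, the entry enzyme of the pentose phosphate pathway (0.96), H2ax, a histone variant (0.96), Rab32, a small GTPase (0.95), and Arpc1b, a subunit of the Arp2/3 complex (0.95). Over the 10 libraries with few monocyte markers the same genes had r of 0.45, 0.49, 0.41, 0.75 and 0.076. Among the enzymes themselves, r with the mean of the other 8 ran from 0.15 for Idh2 to 0.83 for Mdh2 over the 14 libraries. Over the 10 libraries it was 0.57 for Dlst and between −0.59 and 0.037 for the other 8. These values share the libraries and their scaling.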

How the data were processed

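cDNA was amplified by SMART-Seq v4, and the authors aligned reads with HISAT2 2.1 to GRCm39 and counted them per gene with featureCounts 1.5.2. The values the authors deposited are a normalized signal, reads divided by 1 factor per library, and not the counts themselves. All values above 0 (100%) were whole multiples of the value of 1 read within 0.01 read, so whole reads were recovered. Of 14336 entries, 7 identical repeats were left out. Libraries were grouped by the group named above each column. Of the 14 column numbers, 10 carry the same group in the labels, those of TASTPM Control ST library 3 and WT K/BxN ST library 4 carry another group, and those of WT Control ST libraries 2 and 3 are in no label; the column headings were followed. Numbers 1 to 4 in TASTPM K/BxN ST are those of the labels, and other libraries are numbered in deposited order. The study describes its replicates as individual mice, which the labels do not link to samples, and p-values measure the spread between these samples.

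Tested genes had 10 or more reads in 7 or more of the 14 libraries. They were compared with limma 3.58.1 (R 4.3.3), trended prior variance, on log2(normalized count + 1) in 1 fit to 4 groups, with Benjamini-Hochberg adjustment over all 12645 genes; the pseudocount lessens fold changes of low genes. edgeR 4.0.16 and DESeq2 1.42.0 were run on recovered reads. On simulated data with 200 genes changed by 3 on the log2 scale between WT groups, limma called 141 (70.5%) with 10 false calls. On the same data edgeR called 142 with 5 false calls and DESeq2 called 159 with 45. The simulated spread was that of the Control ST libraries alone. Differences of the 9 enzymes between sera were all smaller than 3, so these rates do not apply to changes of their size. Intervals on reads cover counting error alone. Genes named are the 9 enzymes, in each other list the gene with the smallest p in each serum comparison, and the 5 genes most like the 9. An item that this rule names is not reported here. Enzymes and lists were chosen with earlier results of these data known. Positions and lengths are from GRCm39 with GENCODE M39, and the authors used an earlier annotation.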

Additional observations from a re-analysis of the deposited data

How the results depend on the processing

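No enzyme was called in any comparison under any of the alternatives run (scaling, pseudocount, filter, variance, edgeR, DESeq2, single genotypes or sera, each library left out, the marker-high libraries left out, the marker covariate), nor under DESeq2 on single genotypes, chosen after seeing the data. Few genes were called at all. Of 12645 genes, DESeq2 on single genotypes called 102 between sera in WT and 34 in TASTPM. DESeq2 on all libraries called at most 127 in a comparison. With single libraries left out, limma called 0 to 17 by comparison. The median of the 9 enzymes ranged over 0.0085 to 0.45 in WT and 0.043 to 0.46 in TASTPM. Cs in TASTPM ranged over 0.60 to 0.80, with adjusted p of 0.123 to 1. Its unadjusted limma p under Control ST between genotypes was no longer below 0.05 without TASTPM Control ST library 1 or WT Control ST library 2. Under K/BxN ST between genotypes an unadjusted limma p below 0.05 was reached by Dlst without TASTPM K/BxN ST library 1 or 4, and by Mdh2 without WT K/BxN ST library 1 or with the marker covariate. In the interaction it was reached by Cs without TASTPM K/BxN ST library 4, without the marker-high libraries or with the marker covariate. Between sera in WT it was reached by Dlst (library totals, without WT K/BxN ST library 4, WT Control ST library 3 or TASTPM K/BxN ST library 3, DESeq2 on WT alone), Idh3b (without WT K/BxN ST library 4 or WT Control ST library 1) and Idh3a (without WT Control ST library 2). In TASTPM, Cs reached it throughout, Dlst without TASTPM K/BxN ST library 3 and Idh3b with TASTPM fitted alone, by limma or DESeq2. Without TASTPM Control ST library 3, whose column number the labels give to another group, Cs in TASTPM was 0.71. With all 14 libraries in limma, each log2 fold change between sera of the 9 enzymes was below the 1 that a call needs.

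Without the 4 marker-high libraries, 5 enzymes were above 0 in WT, and 5 also with the marker covariate. Signs turned in WT to −0.15 and −0.092 for Mdh2, −0.24 and −0.19 for Ogdh, −0.41 and −0.25 for Fh1 and −0.18 and −0.29 for Suclg1 (libraries left out, then covariate). In TASTPM they turned to −0.55 and −0.53 for Fh1, −0.30 and −0.13 for Suclg1 and, with the libraries left out, −0.040 for Idh3a. In WT, upper quartile scaling gave −0.0039 for Suclg1 and DESeq2 −0.0010 for Ogdh. Omission of single libraries moved further values by over 1.5 times. In WT, Idh3a ranged over 0.31 to 1.27 (lowest without WT Control ST library 1, highest without 2), Idh3b over 0.21 to 0.93 (without WT Control ST libraries 2 and 1; without WT K/BxN ST library 1 it was 0.42), Fh1 over 0.12 to 0.87 (without WT K/BxN ST libraries 1 and 4), Mdh2 over 0.031 to 0.45 (the same libraries), Cs down to 0.14 (without WT K/BxN ST library 1) and Idh2 over 4.1e-05 to 0.17 (without WT Control ST libraries 2 and 1). In TASTPM, Idh2 ranged over 0.026 to 0.26 (without TASTPM K/BxN ST libraries 1 and 4), Idh3a over 0.25 to 0.67 (without TASTPM Control ST library 2 and K/BxN ST library 3), Dlst up to 0.42 (without TASTPM K/BxN ST library 3) and Mdh2 down to 0.27 (without TASTPM K/BxN ST library 1). With a change of sign, such omissions gave −0.16 to 0.33 for Ogdh and −0.11 to 0.12 for Suclg1 in WT, and −0.21 to 0.43 for Fh1, −0.062 to 0.46 for Suclg1 and −0.061 to 0.54 for Ogdh in TASTPM. The cause was not tested. The number of enzymes higher without overlap ran from 1 to 3 in WT, with 3 without WT Control ST library 2 and 2 without WT Control ST library 1 or WT K/BxN ST library 4, and from 1 to 4 in TASTPM, with 4 without TASTPM K/BxN ST library 3 and 2 without TASTPM Control ST library 1 or 2. Over the same omissions 4.74% to 8.92% of all genes were higher without overlap in WT and 3.63% to 6.67% in TASTPM. No paired analysis was possible because the groups share no replicate numbers.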
